A study of Mus musculus with 6 samples.

Results

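The genes described here are 10 genes of the antioxidant program that the transcription factor NRF2 controls: Nqo1, Hmox1, Gclc, Gclm, Gsr, Srxn1, Txnrd1, Gsta4, Slc7a11 and Keap1. They were chosen by name, and each was measured by the brightest transcript cluster (a set of probes for the same transcript) that the array annotation gives to that gene alone. All 10 were found, out of 19938 genes named on the array, and all 10 had exactly 1 such cluster. All 10 also lay above the floor for testing, a mean of log2 5.081 over the arrays, which 15462 genes passed.

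The measurements come from 6 arrays of total RNA from proliferating mouse embryonic fibroblasts (MEFs), primary cells of mainly mesenchymal kind that attach and divide when an embryo is dissociated into a dish. Of these, 3 arrays are of Rb1+/+ cultures and 3 of Rb1L/L cultures, numbered 1 to 3 in each genotype. All cultures came from embryos of stage E13.5 and were grown in serum-containing medium to passage 4, with no treatment named. Rb1 encodes the retinoblastoma protein pRb, and the L allele, as background, carries changes in its LXCXE-binding cleft, a docking surface for chromatin regulators. The labels name no Cre, promoter or strain, and an MEF culture is a mixture in which fewer cells of a type and less RNA per cell cannot be told apart.

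NRF2 is a transcription factor that cells keep scarce while they are unstressed. Its inhibitor KEAP1 holds it in the cytoplasm and presents it to a CUL3 ubiquitin ligase for destruction. When oxidants or electrophiles modify cysteines of KEAP1, NRF2 accumulates, pairs with a small MAF protein and binds antioxidant response elements near genes that make glutathione, reduce thioredoxin and quinones, conjugate toxic aldehydes and break down haem. Fibroblasts in culture are usually grown in more oxygen than tissue holds.

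The antioxidant response element has the core TGACNNNGC, and a related form that NRF2 with small MAF proteins also binds has the letters TGANTCAGC. These motifs were searched for on both strands of RefSeq promoter windows (build GRCm38.p6), which run from 250 bases before to 50 bases after an annotated start. Windows were found for 6 of the 10 members, 8 windows in all, since Txnrd1 has 3 starts; Hmox1, Gclc, Gsr and Gsta4 were not matched. The core was present in 3 of the 8 windows, of Gclm, Srxn1 and Txnrd1, and in 12.4% of all 32851 promoter windows. The longer related form was present in 1 of the 8, of Srxn1, and in 1.19% of all windows; it contains the shorter letters TGANTCA, which occurred in 7.81% of all windows and at a second place in Srxn1. The matched stretches of the core and of the longer form are shown because NRF2 is known to recognise these letters. The stretch of Srxn1 with the shorter letters alone is listed too. It lacks the GC that ends both of these forms, so it is not presented as an NRF2 element. Each stretch is 29 bases long, written 5′ to 3′ on the strand of the gene, with the match in capitals. Capitals that begin with GC are the core read from the other strand.
Gclm, chr3:122245413-122245441, plus strand, match beginning 134 bases before the start: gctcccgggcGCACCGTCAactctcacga
Txnrd1, chr10:82859104-82859132, plus strand, match beginning 92 bases before the start: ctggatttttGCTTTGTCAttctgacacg
Srxn1, chr2:152105411-152105439, plus strand, shorter letters beginning 102 bases before the start: ctcggagggccTGAGTCAccacgctgtgc
Srxn1, chr2:152105469-152105497, plus strand, longer form beginning 45 bases before the start: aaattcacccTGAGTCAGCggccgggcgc
Srxn1, chr2:152105542-152105570, plus strand, core beginning at base 29 after the start: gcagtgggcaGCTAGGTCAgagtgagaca
A match describes these letters and is not a measured binding site. No match was found in the windows of Nqo1, Slc7a11 and Keap1 or in the other 2 windows of Txnrd1.

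The Pearson correlation of arrays over all tested genes was 0.9948 to 0.996 for arrays of the same genotype and 0.9873 to 0.9927 for arrays of different genotypes. Rb1 transcript had a mean of log2 8.83 ± 0.19 in the 3 Rb1+/+ cultures and 8.93 ± 0.07 in the 3 Rb1L/L cultures (SD); as the L allele still makes transcript, this is no check of genotype. Xist, transcribed from the inactive X, was at log2 5.13 and 4.79 in the replicates numbered 1 and at 11.44 to 11.61 in the other 4 cultures, so cultures of the same number were of the same sex type. None of the 10 members lies on the X chromosome or on the chromosome of Rb1. The fibroblast and mesenchyme markers fixed for the check, Col1a1, Vim and Thy1 among them, were above the floor in 8 of 8 cases. Most markers of other cell types were above it too: 10 of 10 macrophage and blood markers named on the array, 5 of 5 neural and glial, 5 of 6 endothelial, 5 of 6 epithelial, 4 of 5 muscle and 2 of 4 liver markers. Highest among these was the muscle actin Acta1, with means of log2 12.08 and 12.02 in Rb1+/+ and Rb1L/L cultures. Next came the neural and glial marker Ncam1 (11.81 and 11.51), the macrophage marker Lyz2 (10.52 and 10.69) and the neural and glial marker Fabp7 (9.97 and 9.47). The highest epithelial marker, the keratin Krt18, had means of 8.28 and 8.43. The liver genes Alb and Ttr and the muscle gene Myh3 were below the floor, and Epcam (5.06 and 5.06) and Pecam1 (5.09 and 5.05) lay at about its level. The floor is low, as 15462 of 19938 genes passed it, and some markers counted as above it were close to it. Among these were Tek (5.09 and 5.09), Afp (5.11 and 5.11), Cdh1 (5.35 and 5.35) and Tie1 (5.37 and 5.41). These counts therefore do not show that each of these cell types was present.

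The comparison asked whether the antioxidant genes differ between Rb1+/+ and Rb1L/L cultures. They did not move as a group. Nqo1 and Gsr rose in Rb1L/L cultures, Gsta4 fell, and the other 7 members, among them the pair that makes glutathione and the reductases of the thioredoxin system, did not pass the test. Over all 15462 tested genes 12.2% passed, 7.1% higher and 5.08% lower, so 2 members higher and 1 lower of 10 are few genes to set against that background. The replicate block, which compares cultures within their numbered pairs, called the same 3 members, beside 14.4% of all tested genes (7.99% higher, 6.45% lower). After centring on the tested genes the same 3 members passed, while the split over all tested genes moved from 1098 higher and 785 lower to 883 higher and 1067 lower. The members' log2 fold changes (Rb1L/L minus Rb1+/+) had a median of 0.0052, beside -0.021 over all tested genes, and their sizes without sign had a median of 0.15, beside 0.10. In 5 members the groups did not overlap, as in 34.5% of all tested genes, and in 7 members the difference had the same sign in all 3 numbered pairs, as in 52.3% of all tested genes. The count changed when arrays were left out. With 1 array left out, Nqo1 and Gsta4 passed without Rb1+/+ replicate 2 or Rb1L/L replicate 2, Gsta4 alone without Rb1+/+ replicate 1, Nqo1 alone without Rb1L/L replicate 1 or 3, and all 3 without Rb1+/+ replicate 3, while between 622 and 1441 of all tested genes were called.

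**Figure D1:**
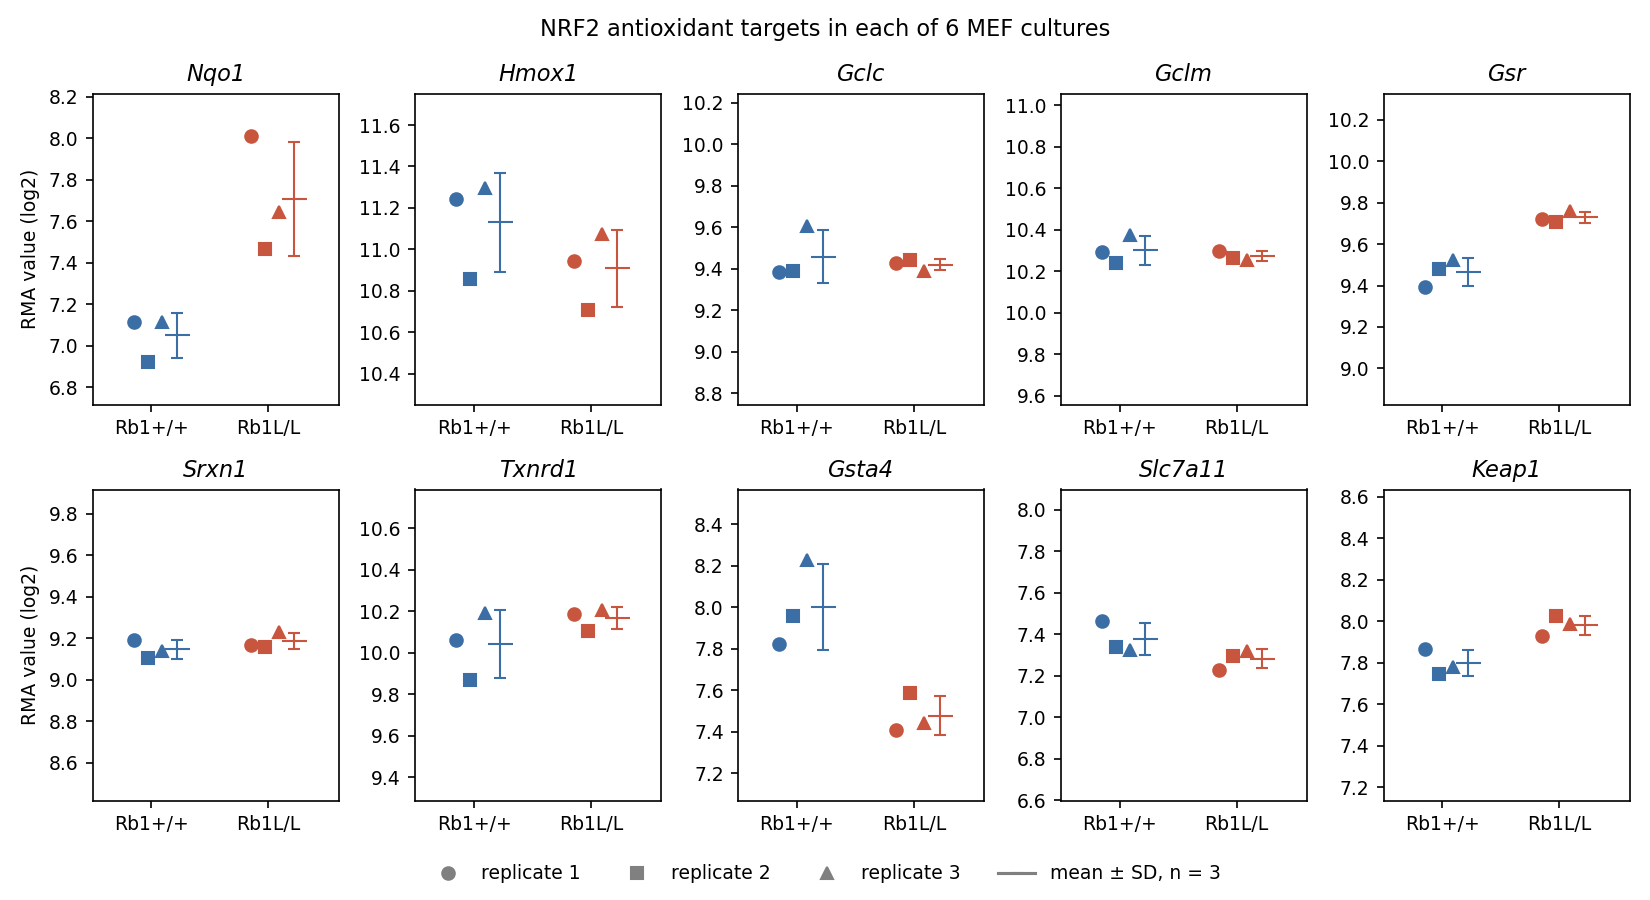
RMA values (log2, vertical axis; every panel spans the same 1.5 log2 units) of the 10 members in each culture, Rb1+/+ in blue and Rb1L/L in red, with symbols for replicates 1 to 3 and bars for the mean and SD (n = 3). Nqo1 and Gsr stand higher and Gsta4 lower in all 3 Rb1L/L cultures, while the points of Gclc, Gclm, Srxn1, Txnrd1 and Hmox1 overlap between genotypes.

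Nqo1 encodes a quinone reductase that takes quinones to hydroquinones in a single step and so avoids reactive semiquinones; it is widely used to read NRF2 activity. Its RMA values were log2 7.11, 6.92 and 7.11 in Rb1+/+ replicates 1, 2 and 3 and 8.01, 7.47 and 7.65 in the Rb1L/L replicates. Every Rb1L/L culture lay above every Rb1+/+ culture, and the highest of all was Rb1L/L replicate 1. The means were 7.05 ± 0.11 and 7.71 ± 0.28 (SD, n = 3 each), a 1.58-fold rise (log2 fold change 0.66 ± 0.13 SE, limma adjusted p = 0.0189). It was the only member to change by 1.5-fold or more, as did 230 of the 1883 genes called. Within numbered pairs the differences were 0.90, 0.54 and 0.53 on the log2 scale, so pair 1 differed most and the other pairs differed alike. Without Rb1+/+ replicate 1 its adjusted p was 0.0527 and the log2 fold change 0.69. Without both arrays of a number it passed for number 2 (adjusted p = 0.0408) and missed the threshold for numbers 1 and 3 (0.0911 and 0.0922).

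The bases before the annotated start of Nqo1 are shown because it had the largest difference of the 10 members. They hold 133 G or C of 250 bases and 5 CpG pairs, and none of the motifs searched for, so no letter is in capitals.
Nqo1, chr8:107403206-107403455, minus strand, 250 bases before the start: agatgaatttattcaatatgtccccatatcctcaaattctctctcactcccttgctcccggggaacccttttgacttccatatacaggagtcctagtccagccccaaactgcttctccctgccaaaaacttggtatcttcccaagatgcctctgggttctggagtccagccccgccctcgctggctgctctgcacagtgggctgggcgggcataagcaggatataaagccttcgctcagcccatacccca
For comparison, the same 250 bases hold 196 G or C and 41 CpG pairs in Gclm, 158 and 21 in Srxn1, 124 and 10 in Keap1, and 108 and 2 in Slc7a11. The promoter of Gclm is thus the richest in CpG and that of Slc7a11 the poorest among these 5 genes, with the 3 windows of Txnrd1 between them or level with Slc7a11 (2, 10 and 19 CpG pairs).

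Glutathione is the main small thiol of the cell, and 3 members make it or keep it reduced. Gclc and Gclm encode the catalytic and the modifier subunit of glutamate-cysteine ligase, the rate-limiting enzyme of glutathione synthesis. Gclc measured log2 9.38, 9.39 and 9.61 in Rb1+/+ replicates 1 to 3 and 9.43, 9.44 and 9.39 in the Rb1L/L replicates. Gclm measured 10.29, 10.24 and 10.38 in Rb1+/+ and 10.30, 10.26 and 10.25 in Rb1L/L. For both subunits the groups overlapped, and Rb1+/+ replicate 3 was the highest of the 6 cultures. The log2 fold changes were -0.039 (95% interval -0.21 to 0.13, adjusted p = 0.767) for Gclc and -0.029 (-0.16 to 0.11, adjusted p = 0.785) for Gclm. Within pairs 1 and 2 both subunits differed by 0.06 or less, and in pair 3 they were lower in Rb1L/L by -0.22 and -0.12. Without Rb1+/+ replicate 3 the signs turned, to 0.035 and 0.0078, still short of the threshold (adjusted p = 0.755 and 0.949).

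Gsr encodes glutathione reductase, which uses NADPH to turn oxidised glutathione back to its reduced form. It measured log2 9.39, 9.48 and 9.52 in Rb1+/+ replicates 1 to 3 and 9.72, 9.71 and 9.76 in the Rb1L/L replicates. The groups were apart by 0.18, and the Rb1L/L cultures lay closer together (SD 0.026) than the Rb1+/+ cultures (SD 0.066). The rise was 1.20-fold (log2 fold change 0.26 ± 0.06 SE, adjusted p = 0.0263), with differences of 0.33, 0.23 and 0.24 in pairs 1, 2 and 3. The difference was thus small and even across pairs. It held without Rb1+/+ replicate 3 (adjusted p = 0.0447) and missed the threshold without any other array: 0.0737 and 0.053 without Rb1+/+ replicates 1 and 2, and 0.0836, 0.0747 and 0.0698 without Rb1L/L replicates 1, 2 and 3. Without both arrays of a number it missed it each time (0.185, 0.118 and 0.0936).

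Slc7a11 encodes the light chain of the cystine-glutamate exchanger, which brings in the cystine from which cysteine for glutathione is made; it is also a target of the stress factor ATF4. Its values were log2 7.47, 7.34 and 7.32 in Rb1+/+ and 7.23, 7.30 and 7.32 in Rb1L/L replicates 1 to 3. The groups did not overlap, but the gap was 0.0049, far below the SD within either group (0.08 and 0.05). The log2 fold change was -0.094 (95% interval -0.24 to 0.05, adjusted p = 0.362), and most of it came from pair 1 (-0.24, against -0.04 and -0.0049 in pairs 2 and 3).

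The thioredoxin system passes electrons from NADPH through thioredoxin to the peroxiredoxins, which destroy peroxides. Txnrd1 encodes the cytosolic thioredoxin reductase, a selenoprotein, and Srxn1 encodes sulfiredoxin, which repairs peroxiredoxins that peroxide has over-oxidised. Txnrd1 measured log2 10.06, 9.87 and 10.19 in Rb1+/+ and 10.19, 10.11 and 10.20 in Rb1L/L replicates 1 to 3. Its groups overlapped, with Rb1+/+ replicate 2 the lowest culture, and the log2 fold change was 0.13 (95% interval -0.07 to 0.32, adjusted p = 0.372). Srxn1 measured 9.19, 9.11 and 9.14 in Rb1+/+ and 9.17, 9.16 and 9.23 in Rb1L/L. All 6 cultures lay close together, for a log2 fold change of 0.04 (95% interval -0.09 to 0.17, adjusted p = 0.687). Gclm, Srxn1 and Txnrd1, whose promoter windows hold the matches shown above, were all among the members that did not pass. Of the members that passed, Gsr and Gsta4 had no window to search, which leaves Nqo1 alone. Bases outside the windows were not searched for any member. Whether a match goes with a change between genotypes was therefore not tested.

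Gsta4 encodes a glutathione transferase with a preference for 4-hydroxynonenal, an aldehyde formed when lipids are oxidised. Its values were log2 7.82, 7.96 and 8.23 in Rb1+/+ and 7.41, 7.59 and 7.44 in Rb1L/L replicates 1 to 3. Every Rb1L/L culture lay below every Rb1+/+ culture, and Rb1+/+ replicate 3 stood highest. The means were 8.003 ± 0.207 and 7.478 ± 0.095 (SD, n = 3 each), a 1.44-fold fall (log2 fold change -0.53 ± 0.10 SE, adjusted p = 0.0196). The pair differences were -0.42, -0.37 and -0.79, with the largest in pair 3. Without Rb1L/L replicate 1 the adjusted p was 0.0683 and without Rb1L/L replicate 3 it was 0.0533. Without both arrays of a number it missed the threshold each time (0.0935, 0.0671 and 0.0832 for numbers 1, 2 and 3). Gsta1 and Gsta2, close relatives, are measured only by clusters that carry several gene symbols and were not used here, and whether their transcripts add to the Gsta4 signal was not tested.

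Hmox1 encodes the inducible haem oxygenase, which opens the haem ring to release iron, carbon monoxide and biliverdin; besides NRF2 it answers to the repressor BACH1. It measured log2 11.24, 10.86 and 11.30 in Rb1+/+ and 10.94, 10.71 and 11.08 in Rb1L/L replicates 1 to 3. The groups overlapped, because replicate 2 was low in both genotypes, yet the Rb1L/L culture was the lower of every pair, by -0.30, -0.15 and -0.22. The log2 fold change was -0.22 (95% interval -0.53 to 0.08, adjusted p = 0.308); with the replicate block the SE was 0.061 in place of 0.13 and the adjusted p was 0.054, still short of the threshold. Hmox1 had the widest spread of the 10 members in Rb1+/+ cultures (SD 0.24), and Nqo1 had the widest in Rb1L/L cultures (SD 0.28).

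Keap1, the inhibitor of NRF2, measured log2 7.87, 7.75 and 7.78 in Rb1+/+ and 7.93, 8.02 and 7.99 in Rb1L/L replicates 1 to 3. The groups did not overlap, with a gap of 0.06. The log2 fold change was 0.18 (95% interval 0.04 to 0.32, adjusted p = 0.0858), the nearest to the threshold among the 7 members that did not pass. It had adjusted p = 0.0616 to 0.128 over the 10 alternatives that kept all arrays, and 0.113 with the replicate block.

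**Figure D2:**
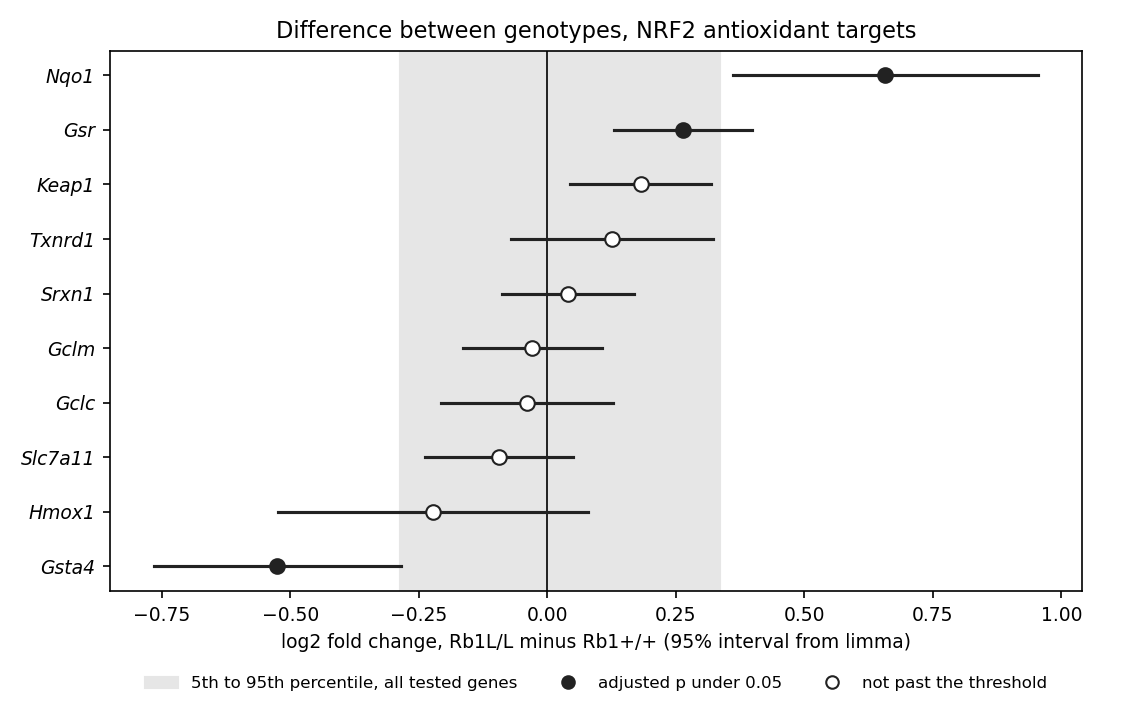
Log2 fold change between genotypes (horizontal axis, Rb1L/L minus Rb1+/+) of each member, with the 95% interval from limma; filled points passed the adjusted threshold, and the grey band runs from the 5th to the 95th percentile of all tested genes (-0.29 to 0.34). Nqo1 at 0.66 and Gsta4 at -0.53 lie outside the band on opposite sides, and the remaining 8 members lie inside it.

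**Figure D3:**
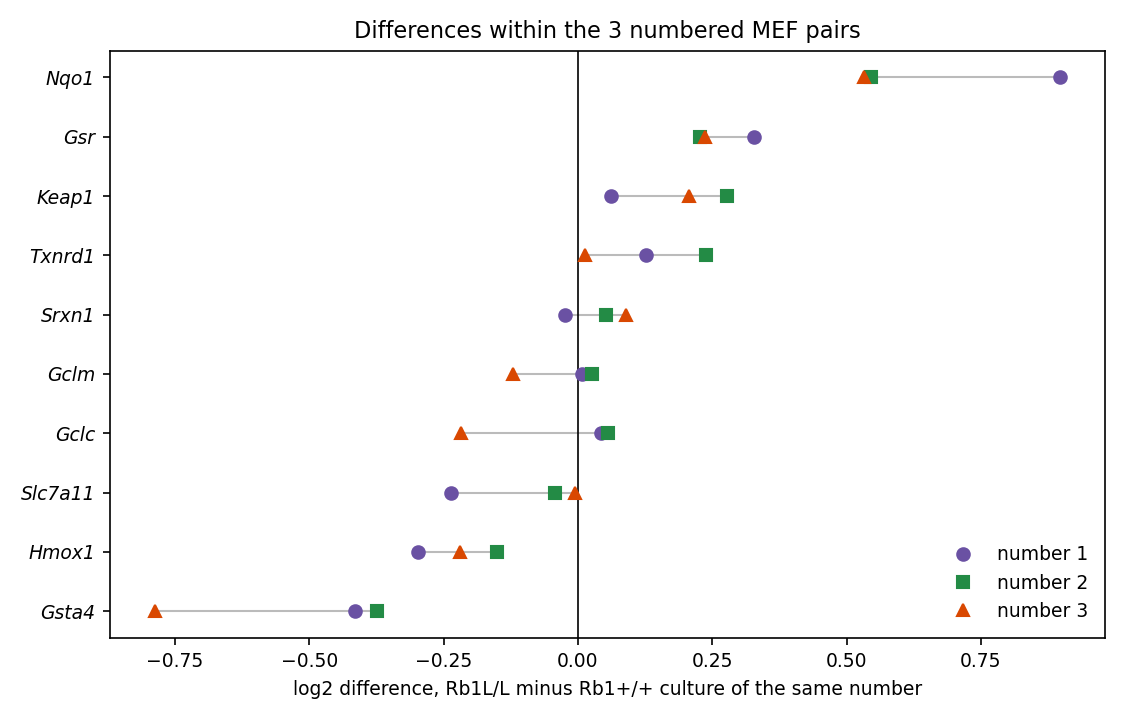
Log2 difference between the Rb1L/L and the Rb1+/+ culture of the same number (horizontal axis) for each member, with a symbol for each of the 3 numbers. The symbols of 7 members stay on the same side of 0; Nqo1 is farthest from 0 in pair 1 (0.90) and Gsta4 in pair 3 (-0.79).

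Markers of other cell types were measured in the same cultures, and their part in these differences was not tested. Of 10 macrophage markers named on the array, Adgre1 (0.95), Cd14 (0.35) and C1qa (0.34) rose, Cx3cr1 had a log2 fold change of -0.34 and passed, and 6 did not pass. With 1 array left out, Adgre1 and Cd14 passed in 4 of 6 fits and C1qa and Cx3cr1 in 1 of 6. The summed intensity of the macrophage list (log2) ran from 11.09 to 11.81 in Rb1+/+ and from 11.30 to 11.87 in Rb1L/L cultures, which overlap. The neural and glial list was at 12.24 to 12.29 in Rb1+/+ and at 11.91 to 11.94 in Rb1L/L cultures, with Fabp7, Tubb3 and Ncam1 lower (3 of 5). With 1 array left out, Fabp7 passed in 6 of 6 fits, Ncam1 in 5 and Tubb3 in 1. Of the fibroblast markers Col3a1 fell by 0.33 and 7 of 8 did not pass, and of 5 tested endothelial markers Kdr rose by 0.58; both passed in 6 of 6 fits with 1 array left out. No tested member of the epithelial, liver or muscle lists passed.

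The genes whose pattern over the 6 arrays lay nearest to each changed member were found by the Euclidean distance between log2 values centred on each gene's mean, among protein-coding genes with established names. Nearest to Nqo1 were Rnd1, Mmp23 and Slc27a3, at distances of 0.24, 0.26 and 0.29. Rnd1 measured log2 7.27, 6.97 and 7.12 in Rb1+/+ and 7.87, 7.55 and 7.79 in Rb1L/L replicates 1 to 3, so it too was highest in Rb1L/L replicate 1 and lowest in Rb1+/+ replicate 2. Nearest to Gsr were Atp5o, a subunit gene of the mitochondrial ATP synthase, Tedc1 and Mipep, at 0.058, 0.060 and 0.063. Nearest to Gsta4 were Wnt4, which encodes a secreted signalling protein, Cep126 and Esf1, at 0.094, 0.17 and 0.19. Wnt4 measured 8.06, 8.21 and 8.42 in Rb1+/+ and 7.61, 7.88 and 7.72 in Rb1L/L, with the same order of cultures as Gsta4. Rnd1 and Wnt4 were picked for likeness over the same 6 arrays, so a shared order of cultures is no separate finding. None of these 9 genes belongs to the lists of antioxidant genes described next.

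The rest of the pathway was described with 9 lists that hold 93 further genes, of which 86 were named on the array and 85 were tested. Of the 85, 7 rose, 3 fell and 75 did not pass, with a median log2 fold change of -0.0068. These shares lie near the background of 7.1% and 5.08% over all tested genes. Of the 7 genes that rose, Gpx4, Gpx7 and Ddit4 missed the threshold under some alternatives that kept all arrays. The count of genes higher ran from 5 to 9 over these alternatives. Of the 3 genes that fell, Arnt and Esd missed the threshold under some of them, and the count of genes lower was 8 with trended variances.

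NRF2 itself (Nfe2l2) measured log2 10.49, 10.38 and 10.39 in Rb1+/+ and 10.43, 10.43 and 10.43 in Rb1L/L replicates 1 to 3, a log2 fold change of 0.012 (95% interval -0.12 to 0.14, adjusted p = 0.915). NRF2 is controlled mainly through its protein, which the array does not measure. None of the 12 genes of the list of NRF2 and its regulators passed. Bach1, the repressor that competes for the same elements, stood at 0.046, the ligase scaffold Cul3 at -0.14 and Sqstm1, an autophagy receptor that can draw KEAP1 away from NRF2, at -0.030. Rbx1, the ring subunit of the same ligase, had a log2 fold change of 0.25 by the brighter of its 2 clusters. Its limma adjusted p was 0.0687, and the replicate block brought it past the threshold (0.0395). It passed in 2 of 10 alternatives that kept all arrays, the block included, and in 1 of 6 fits without 1 array.

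Among 15 tested glutathione and glutathione transferase genes 2 rose and none fell. Mgst1, a membrane-bound glutathione transferase, measured log2 7.79, 7.51 and 7.71 in Rb1+/+ and 8.10, 8.05 and 8.11 in Rb1L/L replicates 1 to 3, a rise of 0.42 ± 0.08 (SE; adjusted p = 0.0166, or 0.0593 without Rb1L/L replicate 1). The Rb1L/L cultures of Mgst1 were all above the Rb1+/+ cultures and close to each other. Gpx4, the selenoenzyme that reduces lipid peroxides in membranes, rose by 0.35 ± 0.09 (SE; adjusted p = 0.0367, or 0.0502 with the replicate block); it missed the threshold without Rb1+/+ replicate 1 (0.0821) or 3 (0.0977) and without Rb1L/L replicate 1 (0.0973) or 3 (0.0878). Gstt1 stood at 0.24 and passed with the block (adjusted p = 0.0399) but not without it (0.135).

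The largest difference in the pathway lists was that of Prdx4, the peroxiredoxin of the endoplasmic reticulum. It measured log2 8.27, 8.49 and 8.14 in Rb1+/+ and 9.54, 9.37 and 9.26 in Rb1L/L replicates 1 to 3. The groups were apart by 0.77, and the rise was 2.13-fold (log2 fold change 1.09 ± 0.10 SE, adjusted p = 0.00233). Prdx4 lies on the X chromosome, and the difference was 1.27 in pair 1 and 0.88 and 1.12 in pairs 2 and 3, so it was present in pairs of either sex type. The other 7 tested thioredoxin and peroxiredoxin genes did not pass and lay between -0.15 and 0.14, Txn1 at the lower and Prdx1 at the upper end.

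Of 8 haem and iron genes, Blvra rose and none fell. Blvra encodes biliverdin reductase A, the enzyme after haem oxygenase in haem breakdown. It measured log2 7.17, 7.13 and 7.06 in Rb1+/+ and 7.91, 7.86 and 7.78 in Rb1L/L replicates 1 to 3, a 1.66-fold rise (log2 fold change 0.73 ± 0.06 SE, adjusted p = 0.00146). Blvra passed without each of the 6 arrays in turn (adjusted p = 0.00502 to 0.00971). Its pair differences of 0.74, 0.73 and 0.72 were nearly equal, whereas Hmox1, the step before it, was lower in each Rb1L/L culture of a pair without passing. The haem importer Slc48a1 and ferrochelatase Fech, the last enzyme of haem synthesis, stood at -0.29 and -0.30, with adjusted p = 0.0637 and 0.057, and the replicate block brought them past the threshold (0.0238 and 0.0335).

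Of 7 superoxide and peroxide enzymes, Cat fell and Gpx7 rose. Cat encodes catalase, the peroxisomal enzyme that splits hydrogen peroxide. It measured log2 11.06, 10.90 and 11.03 in Rb1+/+ and 10.51, 10.49 and 10.56 in Rb1L/L replicates 1 to 3, a 1.39-fold fall (log2 fold change -0.48 ± 0.06 SE, adjusted p = 0.00481). All 3 Rb1L/L cultures of Cat were below all Rb1+/+ cultures, and the gene passed without each array in turn (adjusted p = 0.00798 to 0.0245), though not without both arrays numbered 1 (0.0856). Gpx7, a peroxidase of the endoplasmic reticulum like Prdx4, rose by 0.24 ± 0.06 (SE; adjusted p = 0.0399); it held without Rb1L/L replicate 3 (0.0435) and missed the threshold without Rb1+/+ replicate 1, 2 or 3 (0.0748, 0.0772 and 0.102) or Rb1L/L replicate 1 or 2 (0.135 and 0.125). It also missed it after quantile normalization (0.0748), after centring on the tested genes (0.0676) and with no filter (0.0504). The superoxide dismutases Sod1 (0.16), Sod2 (-0.011) and Sod3 (-0.27) did not pass.

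Of 12 tested detoxification and efflux genes, Cbr3 rose and Esd fell. Cbr3 encodes a carbonyl reductase and rose by 0.33 ± 0.06 (SE; adjusted p = 0.0151, or 0.0549 and 0.0544 without Rb1L/L replicate 1 or 2). Esd encodes S-formylglutathione hydrolase, a neighbour of Rb1 on its chromosome, and fell by 0.32 (SE 0.06; adjusted p = 0.0129, or 0.0547 when its 2 clusters were averaged and 0.05004 without Rb1L/L replicate 1). None of the 5 tested NADPH supply genes passed, their log2 fold changes running from -0.20 for Idh1 to 0.068 for Tkt.

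Some members also answer to other stress factors. Of 12 ATF4 and amino acid response genes, the list that bears on Slc7a11, only Ddit4 rose (0.33 ± 0.08 SE, adjusted p = 0.0422) and none fell, with a median of -0.0062; Slc3a2, the heavy chain that pairs with the Slc7a11 product, stood at -0.0068. Ddit4 held without Rb1+/+ replicate 1 (adjusted p = 0.0246) and missed the threshold without Rb1+/+ replicate 2 or 3 (0.101 and 0.112) or Rb1L/L replicate 1, 2 or 3 (0.119, 0.0813 and 0.107), after quantile normalization (0.0642), after centring on the tested genes (0.0528) and with no filter (0.0503). Nqo1 is also a target of the aryl hydrocarbon receptor AHR. Of 6 genes of that battery none rose. Tiparp stood at 0.26 (adjusted p = 0.287), with a higher value in the Rb1L/L culture of every pair (0.51, 0.20 and 0.07), and the receptor gene Ahr stood at -0.23 (adjusted p = 0.528), with a lower value in every pair (-0.026, -0.23 and -0.44). Cyp1b1 stood at -0.0042, Ahrr at 0.046 and Cyp1a1, whose means of log2 5.11 and 5.08 lie at the floor, at -0.029. The receptor's partner Arnt fell by 0.19 (SE 0.05; adjusted p = 0.0473, or 0.0667 with the replicate block, 0.0814 after median centring and 0.0634 with no filter). Arnt missed the threshold without any 1 of the arrays (0.106, 0.0819 and 0.103 without Rb1+/+ replicates 1, 2 and 3, and 0.12, 0.145 and 0.0999 without Rb1L/L replicates 1, 2 and 3).

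**Figure D4:**
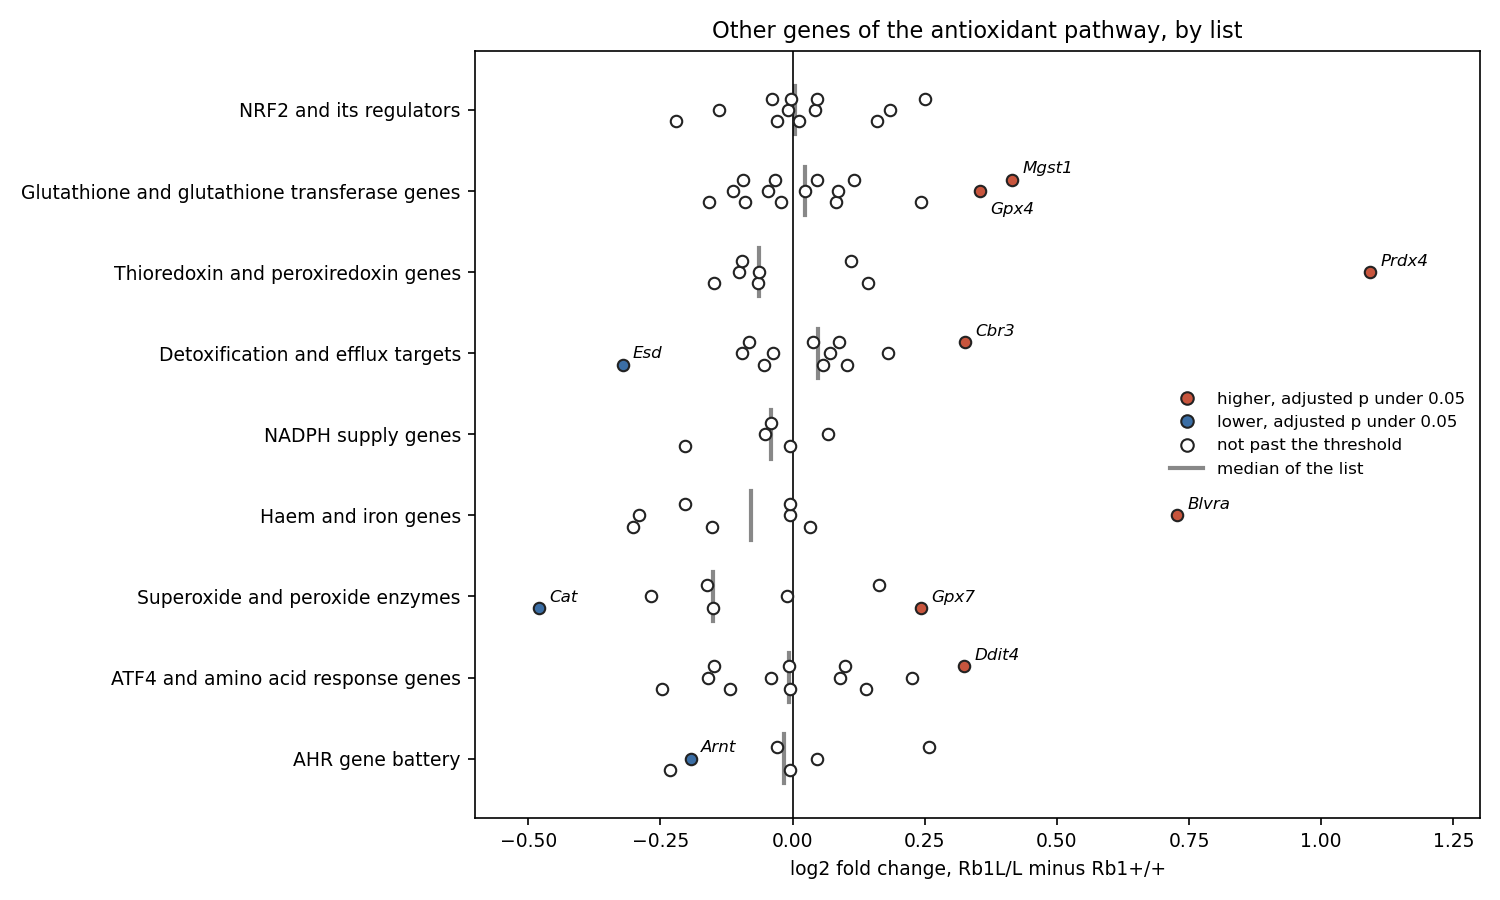
Log2 fold change between genotypes (horizontal axis, Rb1L/L minus Rb1+/+) of 85 tested genes in 9 lists of the antioxidant pathway; filled and named points passed the adjusted threshold (red higher, blue lower), and grey bars mark each list's median. Prdx4 (1.09) and Blvra (0.73) lie farthest to the right and Cat (-0.48) farthest to the left, and the list medians lie between -0.15 and 0.048.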

How the data were processed

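Total RNA of 6 MEF cultures was hybridised to Affymetrix mouse gene arrays after biotin labelling, per the labels. The deposited log2 values were made by the authors with RMA, and Partek is also named (per the submitters' processing notes); no version, setting or genome build was given in the sources used here. By construction RMA removes background and gives all arrays the same distribution of probe values before probes are combined into clusters. RMA thus hides much of a shift common to most genes and shrinks differences of weakly expressed ones. The array medians over all clusters still ran from log2 6.393 to 6.449. An array has no read depth, and the number of arrays limits the precision.

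The platform annotation gave 1 gene symbol to 21789 of the 35556 transcript clusters, several to 1621 and none to 12146. Symbols were updated through the reference table (GRCm38.p6). The brightest cluster stood for each of 19938 genes, and the floor, log2 5.081, was set at the 90th percentile over 1194 odorant and pheromone receptor genes (Olfr and Vmn). The test was limma's moderated linear model (limma 3.58.1, R 4.3.3, eBayes defaults, no block), with Benjamini-Hochberg adjustment over 15462 genes and a threshold of 0.05. Intervals (95%) are limma's and are not adjusted for the number of genes. The p-values measure the spread between cultures that the labels list as separate samples. On simulated data with 15462 genes the fit recovered 98% of 100 genes changed 2-fold and 85% of 100 changed 1.5-fold, with 7 false calls. The simulated cultures were drawn independently, without pairs, and no change below 1.5-fold was planted. The simulation thus does not describe recovery for members other than Nqo1, which all differed by less than 1.5-fold.

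The replicate numbers pair the cultures: after each genotype's mean was taken off, arrays of the same number correlated at 0.30, 0.24 and 0.30 across genes, and the series' design text speaks of pairs. Alternatives covered this block, moderation, array weights, scaling, filters, the cluster rule and leaving out arrays. The members and all lists were chosen with earlier results of these data known. Named were all members, the genes of each pathway list past the threshold, Nfe2l2, Bach1, Cul3 and Sqstm1, and the 3 nearest patterns to each changed member; other genes, those that pass only with the block among them, were named after their values were seen. No set test was run.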

Additional observations from a re-analysis of the deposited data

How the results depend on the processing

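With all arrays kept, the members called were 2 higher and 1 lower under each of the 10 alternatives, the replicate block included. Without 1 array, or both arrays of a number, 0 to 2 members were called higher and 0 to 1 lower; for all tested genes the count ran from 92 to 1441, against 1883. The other genes of the pathway gave 2 to 6 higher and 0 to 4 lower in those fits. With all arrays kept, the higher count of these pathway genes was 7 and ran from 5 to 9 over the alternatives. Their lower count of 3 became 8 with trended variances, 5 with the stricter filter and 5 after centring on the tested genes. The last of these alternatives was chosen after seeing the data. That centring gave 883 genes higher and 1067 lower over all genes, against 1098 and 785; centring on all clusters gave 1259 and 597. Gclc and Gclm turned sign without Rb1+/+ replicate 3 (range over these fits -0.087 to 0.050 and -0.061 to 0.017); no other member did. The replicate block changed the call of no member; in the pathway lists it gave 8 higher and 4 lower. The members that crossed the threshold when arrays were left out were Gsr, Gsta4 and Nqo1; Keap1 and Hmox1 stayed short of it in each of these fits.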
